A study of Mus musculus with 6 samples.

Results

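The unfolded protein response of the endoplasmic reticulum (ER) was examined in microglia with and without PGC-1α overexpression, through 10 genes: the chaperones Hspa5, Hsp90b1, Dnajb9 and Sdf2l1, the disulfide isomerases Pdia4 and Pdia6, the sensors and transcription factors Ern1, Atf6 and Xbp1, and the degradation factor Herpud1. They were found through every non-control array probe whose transcript accession belongs to one of these symbols. That gave 16 probes for the 10 genes, of 23462 genes with a named probe on the array. PGC-1α, encoded by Ppargc1a, is a coactivator of mitochondrial genes. PGC-1αf/f mice carry a loxP-flanked PGC-1α allele linked to eGFP, and mPGC-1α mice carry in addition a tamoxifen-inducible Cre knocked into Cx3cr1, a locus active in microglia and also in other macrophages and monocytes. The controls were PGC-1αf/f littermates, so both groups held the floxed allele and only mPGC-1α mice held the Cre. All samples were labelled male and 10 weeks old, on a C57BL/6 background, without stroke. Cells were taken from brain through the surface receptor P2RY12, and each of 3 samples per group was hybridized to a 1-colour array. Whether tamoxifen was also given to the controls for these arrays is not given in the sources used here. The labels do not say that samples of a group came from separate animals, and p-values then measure only the spread between these samples, which may be technical.

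The unfolded protein response adjusts the folding capacity of the ER. HSPA5 (BiP) holds 3 sensors in check, namely IRE1α (Ern1), ATF6 and PERK (Eif2ak3), and unfolded proteins draw it away. IRE1α splices the mRNA of Xbp1 into that of an active transcription factor, ATF6 is cut in the Golgi to release another, and PERK phosphorylates eIF2α, which slows translation while favouring that of Atf4. XBP1 and ATF6 raise chaperones, disulfide isomerases and degradation factors, whereas ATF4 raises Ddit3, Ppp1r15a, Trib3, Chac1 and Asns. In microglia the pathway has been studied under inflammation and protein aggregation.

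Some promoters of the members hold known sequence elements, which the choice of genes did not use. RefSeq promoters of the build GRCm38.p6, which run from 250 bases before to 50 after a gene's start, were searched on both strands. The table held 9 of the 10 members, Atf6 being the other gene. The ER stress response element ERSE, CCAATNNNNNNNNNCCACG, occurred in Hspa5, Hsp90b1 and Pdia6, that is in 3 of 9 member promoters (33.3%), against 39 of 32851 promoters in all (0.119%). The related ERSE-II, ATTGGNCCACG, occurred in Herpud1 and in 12 promoters in all (0.0365%). The XBP1 element TGACGTGG was in 0 of the 9, and in 222 of all promoters (0.676%). Dnajb9, Sdf2l1, Pdia4, Xbp1 and Ern1 held none of these letters in this window. ERSE was defined on promoters of such chaperones, so these counts are a description and no independent evidence. The stretches below show the elements that ATF6 and XBP1 are known to act through in the members whose levels follow. Each holds 15 bases on either side of the element, which is in capitals, 5′ to 3′ on the gene's strand.
Hspa5, chr2:34772010-34772058, plus strand: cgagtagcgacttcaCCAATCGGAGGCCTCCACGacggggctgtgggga
Pdia6, chr12:17266476-17266524, plus strand: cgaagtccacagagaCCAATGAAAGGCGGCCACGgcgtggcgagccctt
Herpud1, chr8:94386362-94386402, plus strand: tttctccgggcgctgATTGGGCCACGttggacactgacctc
Hsp90b1, chr10:86705518-86705671, minus strand, with an ERSE in each orientation: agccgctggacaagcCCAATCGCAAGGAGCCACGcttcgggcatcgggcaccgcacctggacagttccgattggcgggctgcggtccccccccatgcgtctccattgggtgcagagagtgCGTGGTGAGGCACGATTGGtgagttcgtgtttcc
The Hspa5 element lay from base -65 to -47 of the start, that of Pdia6 from -98 to -80 and that of Herpud1 from -52 to -42. The Hsp90b1 elements lay from -212 to -194 and from -107 to -89.

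On each array 27025 to 30272 of 59305 non-control spots were well above background, and 0 spots were saturated. Levels are log2 signals from which the 75th percentile of the array was subtracted, so 0 is the brightness of that percentile and 1 unit is a doubling. Levels of different probes cannot be set against each other. Microglial markers were present on every array: each of the 14 listed had a probe well above background on all 6. The array of PGC-1αf/f replicate 3 stood apart, with a mean correlation of 0.93 with the other 5, among which the lowest was 0.97. Its blood leukocyte markers, 22 tested genes, had a mean level of -0.78, against 1.23 and 1.67 on the other PGC-1αf/f arrays and 1.48 to 2.03 on the mPGC-1α arrays. On mPGC-1α replicate 3, labelled male, the 4 Y-linked genes had a mean level of -5.88, against -2.03 to -0.74 on the other 5 arrays. The medians of the members and of the PERK branch, and some single differences, are therefore also given without 1 or both of these arrays. In bulk RNA, a change in the number of cells of a type and a change of RNA per cell cannot be told apart. Ppargc1a itself differed by 0.80 (SE 0.35, limma adjusted p = 0.306) and Cx3cr1 by -0.51 (SE 0.14, adjusted p = 0.194), so that neither check of the labels passed the threshold. Without PGC-1αf/f replicate 3 the Ppargc1a difference was 0.44, and without mPGC-1α replicate 3 it was 0.92. A second Ppargc1a probe differed by 0.59 (adjusted p = 0.445). A second Cx3cr1 probe, with 2 values per group, differed by -0.85 (adjusted p = 0.275). The groups overlapped in both Ppargc1a probes and in neither Cx3cr1 probe. The paper reports higher PGC-1α mRNA in microglia of mPGC-1α mice by qRT-PCR.

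To determine whether PGC-1α overexpression was accompanied by a change of the ER folding machinery at rest, the 2 groups were compared probe by probe. None of the 10 genes had a difference past the limma threshold of an adjusted p of 0.05. Of the 15 member probes tested, 0 passed it and 0 had an unadjusted p under 0.05, where 0.0792% and 16.7% of all 25257 tested probes did. In 0 of the 8 member probes with a value on all arrays did the groups fall apart, against 25.2% of 22997 such probes. Ern1 was not tested, since its probe failed to stand well above background anywhere, and 9 genes remained. Of these, 6 had a probe with values on all arrays, and their log2 differences (mPGC-1α minus PGC-1αf/f) ran from 0.04 to 0.22 with a median of 0.08, beside a median of 0.03 over 12302 tested genes. Hsp90b1, Sdf2l1 and Pdia4 lacked a value on at least 1 array, because the scanner software had marked the spot as an outlier and such spots were left out. That befell 14 of the 96 member spots (14.6%), against 1.75% of all spots.

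**Figure D1:**
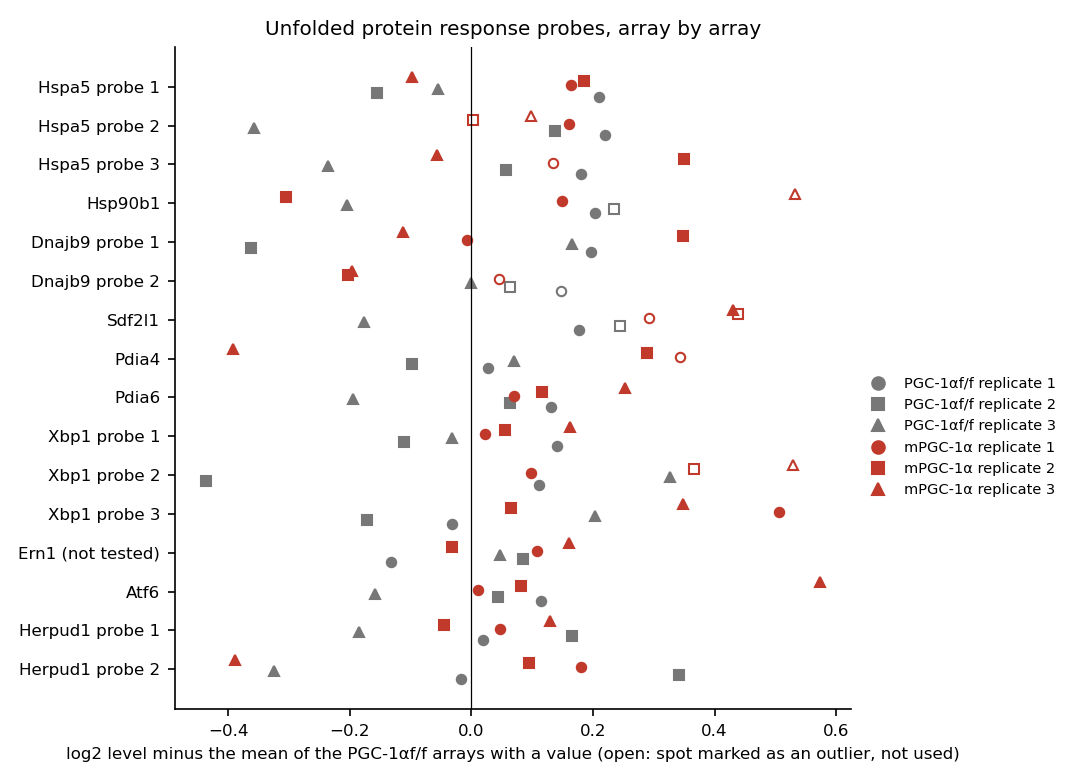
Level of each member probe on each array, as the log2 level minus the mean of the PGC-1αf/f arrays with a value. Grey symbols are PGC-1αf/f and red symbols mPGC-1α, with circles, squares and triangles for replicates 1, 2 and 3, and open symbols are outlier spots left out of the test. Grey and red filled symbols overlap in each probe with values on all 6 arrays.

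The ER chaperones came first. Hspa5, the ER member of the HSP70 family and the usual readout of this response, gave 2.55, 2.19 and 2.29 in the controls and 2.51, 2.53 and 2.25 in mPGC-1α samples. The highest and the lowest value both belonged to the control group. The difference was 0.08 (SE 0.16, 95% interval -0.29 to 0.46, adjusted p = 0.807). Over 20 alternative choices of processing and arrays it ran from -0.05 to 0.24. The other Hspa5 probes differed by 0.16, with 1 of 3 mPGC-1α values, and by 0.15, with 2 of 3 (adjusted p = 0.809 and 0.743).

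Hsp90b1 encodes GRP94, the HSP90 of the ER. Its single probe read 4.09 and 3.69 on PGC-1αf/f replicates 1 and 3 and 4.04 and 3.59 on mPGC-1α replicates 1 and 2. The difference over these 4 arrays was -0.08 (SE 0.26, interval -0.74 to 0.58, adjusted p = 0.898). With the outlier spots kept, which was tried after the data had been seen, it was 0.05 (adjusted p = 0.934).

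Dnajb9 (ERdj4) is a co-chaperone of HSPA5 that also restrains IRE1α. The probe with values on all arrays was dim and well above background on 2 of 3 control arrays, with levels of -3.04, -3.60 and -3.08 in controls and -3.25, -2.89 and -3.35 in mPGC-1α microglia. The groups overlapped, and the difference was 0.08 (SE 0.21, interval -0.42 to 0.57, adjusted p = 0.871). A second Dnajb9 probe read 2.05 on PGC-1αf/f replicate 3 and 1.85 on both mPGC-1α replicates 2 and 3, the arrays where its spot was kept. Its difference was -0.20 (SE 0.23, adjusted p = 0.691), so the 2 probes did not share a sign.

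Sdf2l1 encodes a cofactor of the HSPA5 cycle. Its probe was left with 2.41 and 2.06 on PGC-1αf/f replicates 1 and 3 and with 2.67 on mPGC-1α replicate 3. The difference of 0.43 was the widest of any member probe, with an SE of 0.28, an interval from -0.34 to 1.20 and an adjusted p of 0.482. It rested on 1 mPGC-1α array, the one whose Y-linked genes were near background, and could not be fitted without it. With outlier spots kept, the levels were 2.41, 2.48 and 2.06 in controls and 2.53, 2.67 and 2.67 in mPGC-1α microglia. With 1 mPGC-1α value, the spots used cannot show whether the groups were separate. With all spots the groups did not overlap, and the difference was 0.31 (adjusted p = 0.355). Of all probes with values on all arrays, 25.2% did not overlap either.

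The disulfide isomerases form and rearrange disulfide bonds of proteins in the ER. Pdia6 gave 3.11, 3.04 and 2.79 in PGC-1αf/f and 3.05, 3.10 and 3.23 in mPGC-1α microglia. The lowest value was that of PGC-1αf/f replicate 3, and the other 5 lay between 3.04 and 3.23. The difference was 0.15 (SE 0.14, interval -0.19 to 0.49, adjusted p = 0.619), and it was 0.05 without that array and -0.00 without both replicates 3. Pdia4 gave 2.25, 2.13 and 2.29 in controls, and 2.51 and 1.83 on mPGC-1α replicates 2 and 3. These mPGC-1α values lay on either side of the control range, with a difference of -0.05 (SE 0.23, interval -0.62 to 0.52, adjusted p = 0.926). Without mPGC-1α replicate 3 it was 0.29, a change of sign that rested on mPGC-1α replicate 2 alone.

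Among the sensors and transcription factors, Atf6 had the largest difference of the 6 genes measured on all arrays. Its levels were 1.42, 1.35 and 1.15 in controls and 1.32, 1.39 and 1.88 in mPGC-1α microglia. A single array, mPGC-1α replicate 3, stood above the controls. The difference was 0.22 (SE 0.19, interval -0.22 to 0.67, adjusted p = 0.562), and without that array it was 0.05, and without both replicates 3 -0.03. Ern1 encodes the kinase and RNase that splices Xbp1. Its signal was 30.6 to 73.1 intensity units, where the 75th percentile of the arrays was 1012 to 2138, which was never well above background, and no difference is given.

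Xbp1 had 3 probes, all well above background throughout. The brightest read 3.42, 3.17 and 3.25 in controls and 3.31, 3.34 and 3.45 in mPGC-1α microglia, a difference of 0.08 (SE 0.13, interval -0.23 to 0.39, adjusted p = 0.776). This was the smallest SE of the list, and over 20 alternatives the difference ran from -0.05 to 0.19. A second probe read 0.60, 0.46 and 0.83 in controls and 1.14, 0.70 and 0.98 in mPGC-1α microglia, where the groups overlapped through the lowest mPGC-1α and the highest control value. Its difference was 0.31 (SE 0.17, interval -0.10 to 0.72) with an adjusted p of 0.395, the lowest of the member probes. The third, with 1 mPGC-1α value, differed by 0.10 (SE 0.35). The probes' sequences were not used here, and spliced and unspliced Xbp1 were not told apart.

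Herpud1 encodes a membrane protein that assembles the ER degradation machinery, and its promoter holds the ERSE-II shown above. It gave 3.31, 3.46 and 3.11 in PGC-1αf/f and 3.34, 3.25 and 3.43 in mPGC-1α microglia. All mPGC-1α values lay inside the control range. The difference was 0.04 (SE 0.14, interval -0.30 to 0.38, adjusted p = 0.896), and a second probe gave -0.04 (SE 0.23, adjusted p = 0.947). Thus the 2 genes with an element of the ERSE kind closest to the start, Herpud1 and Hspa5, and the 2 with it farther away, Pdia6 and Hsp90b1, all had intervals that included 0.

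**Figure D2:**
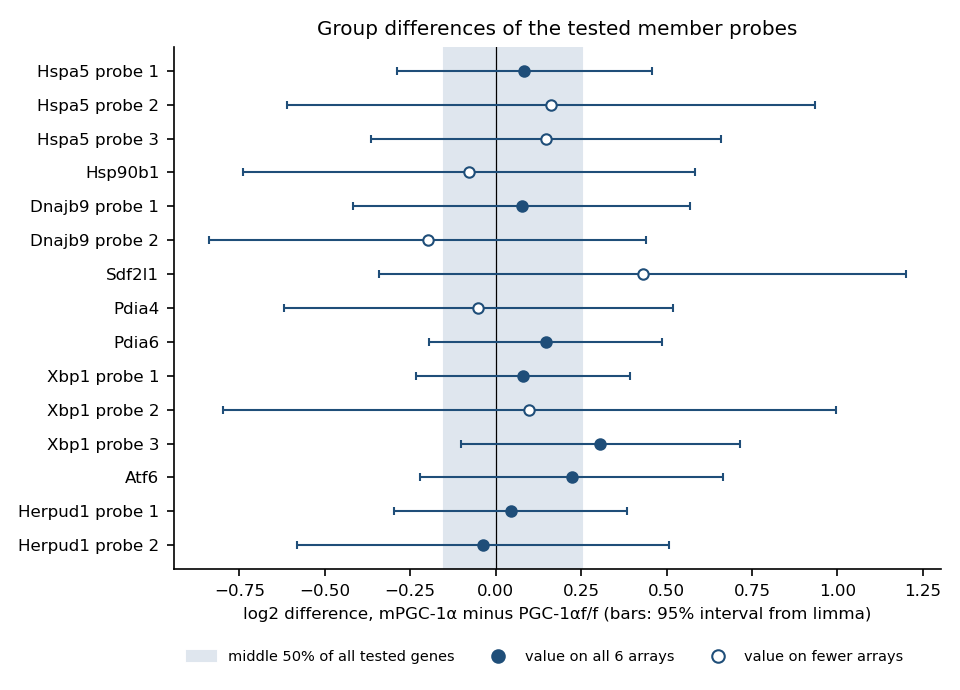
Log2 difference between mPGC-1α and PGC-1αf/f microglia for each of the 15 tested member probes, with the 95% interval from limma. Filled points have values on all 6 arrays, open points on fewer, and the shaded band holds the middle 50% of all tested genes (-0.15 to 0.25). Each interval includes 0, and Sdf2l1, at 0.43 on 3 arrays, is the point farthest from it.

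For the 6 genes measured on all arrays, the precision was close to that of other genes. The median SE of the 6 genes was 0.15, and that of all tested genes 0.17. Over the 15 tested member probes it was 0.21, against 0.18 for all tested probes. Of all tested probes, 24.2% differed by more than 0.43, the largest size among the member probes. For the 8 member probes measured on all arrays, the intervals reached from -0.58 to 0.72, the upper bound being that of the second Xbp1 probe. That the p-values missed the threshold does not show that the groups were alike.

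The median of 0.08 over the 6 genes was -0.05 when arrays were scaled to their median signal, a setting that moves all genes alike, by -0.13. Relative to the median of all genes it was 0.05 under both scalings, and ran from -0.01 to 0.15 over 19 alternatives. The median itself was 0.18 without PGC-1αf/f replicate 1, 0.06 without PGC-1αf/f replicate 3, 0.07 without mPGC-1α replicate 3 and 0.01 without both replicates 3. Slide row and group cannot be told apart, because the PGC-1αf/f arrays lay in 1 row of the slide and the mPGC-1α arrays in the other. Within the slide columns that held both groups, the median was -0.08 in column 1 and 0.11 in column 2.

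The rest of the pathway was read from a list of 92 further genes in 7 roles, of which 80 were measured by a tested probe on each array. None passed the limma threshold, as 0.065% of all genes did. At an unadjusted p under 0.05, 8 of the 80 were higher in mPGC-1α microglia (10.0%) and 0 were lower, against 8.16% and 5.71% of all genes. The groups did not overlap in 10 genes that were higher and 3 that were lower, where 12.2% and 10.8% of all genes were so placed. The median difference of the 80 was 0.04. Thus the list as a whole lay near the background, and the 8 genes were Ppp1r15a, Trib3, Chac1, Asns, Txndc11, Creb3l1, Bhlha15 and Derl3. Trib3, Asns and Creb3l1 are named because of their values. Bhlha15, Chac1, Trib3 and Txndc11 were well above background on every array in the mPGC-1α group alone and entered the test through it, so that the count of 8 gives no support to a direction. Among the 76 genes well above background on all arrays, 4 were higher and 0 lower, where 7.53% and 5.87% of all such genes were. Without PGC-1αf/f replicate 3 the count of the 80 was 6, without mPGC-1α replicate 3 it was 4 and without both it was 5, where 6.23%, 5.06% and 5.75% of all genes were higher at that p. It was 3 without mPGC-1α replicate 2 and 11 without mPGC-1α replicate 1, against 4.76% and 5.18% of all genes.

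**Figure D3:**
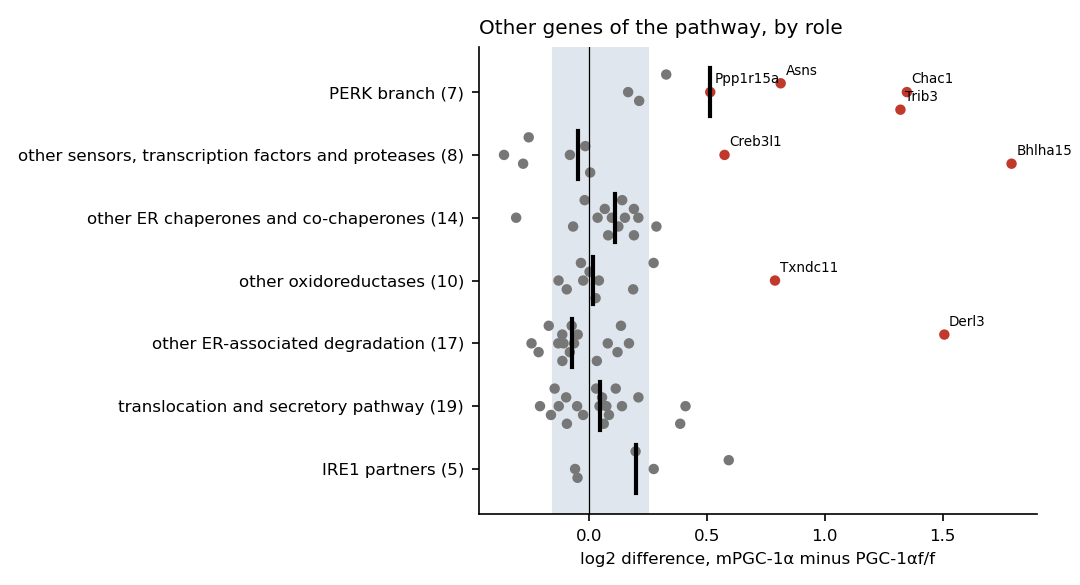
Log2 difference between mPGC-1α and PGC-1αf/f microglia for 80 further genes of the pathway by role, with the number of genes in brackets. Red points are the 8 genes with an unadjusted p under 0.05, none of which passed the adjusted threshold, black bars are role medians and the shaded band is the middle 50% of all tested genes. The PERK branch has a median of 0.52, or 0.33 without its 2 genes that were dim in controls, and the other roles have medians from -0.07 to 0.20.

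The PERK branch had 7 of its 9 genes measured on all arrays. All 7 differences were positive, from 0.17 to 1.35 with a median of 0.52, and 4 had an unadjusted p under 0.05, beside the 8.16% of all genes higher at that p. None passed the adjusted threshold. Chac1 and Trib3 entered the test through the mPGC-1α arrays, and without them the other 5 genes had a median of 0.33, with 2 at an unadjusted p under 0.05. The other 2 genes of the list, PERK itself (Eif2ak3) and Ppp1r15b, had values on fewer arrays and both differed by -0.24 (adjusted p = 0.645 and 0.636). In the case of Eif2ak3, 1.37 on PGC-1αf/f replicate 3 was set against 1.06 and 1.21 on mPGC-1α replicates 1 and 2. Over the 14 alternatives with a value, the Eif2ak3 difference ran from -0.79 to -0.17.

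The most even difference of the branch was in Ppp1r15a (GADD34), the phosphatase subunit that reverses eIF2α phosphorylation. It gave 0.28, 0.06 and 0.11 in PGC-1αf/f and 0.68, 0.69 and 0.63 in mPGC-1α microglia, groups that did not overlap. The difference was 0.52 (SE 0.13, interval 0.21 to 0.82, adjusted p = 0.164), and 0.49 to 0.53 without 1 or both replicates 3. Atf4, the transcription factor of the branch, gave 3.61, 3.39 and 3.33 in controls and 3.61, 3.50 and 3.72 in mPGC-1α microglia. Its difference was 0.17 (SE 0.14, interval -0.17 to 0.50, adjusted p = 0.561). Ddit3 (CHOP), a target of ATF4 linked to cell death, gave 0.36, 0.53 and 0.62 in controls and 0.72, 0.81 and 0.62 in mPGC-1α microglia. The groups touched at 0.62, and the difference was 0.21 (SE 0.14, adjusted p = 0.444).

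The wider differences of the branch were in the ATF4 targets Chac1, Trib3 and Asns, each lowest on PGC-1αf/f replicate 3. That array was the lowest for 4 of the 7 measured branch genes and for 33.4% of all 12302 tested genes. Chac1 and Trib3 were dim, so that neither the sizes nor the order of their differences is exact. Chac1, a glutathione-degrading enzyme, gave -3.79, -3.22 and -5.12 in controls, where it was well above background on 1 array, and -3.16, -2.25 and -2.67 in mPGC-1α microglia. Its difference was 1.35 (SE 0.48, interval 0.20 to 2.50, adjusted p = 0.256), and 0.81 without PGC-1αf/f replicate 3. Trib3, a pseudokinase that feeds back on ATF4 signalling, gave -3.18, -3.14 and -4.26 in controls, again well above background on 1 array, and -2.02, -1.85 and -2.75 in mPGC-1α microglia. Its difference was 1.32 (SE 0.37, adjusted p = 0.192), and 0.96 without that array. Asns, asparagine synthetase, differed by 0.81 (SE 0.30, adjusted p = 0.265) with overlapping groups, and by 0.53 without it. Other kinases that phosphorylate eIF2α also feed ATF4, and which of them was active cannot be read from these levels. The branch median was 0.49 without PGC-1αf/f replicate 3, 0.53 without mPGC-1α replicate 3 and 0.45 without both. The count of 4 genes was 2 without mPGC-1α replicate 2 or 3 or both replicates 3, 3 without PGC-1αf/f replicate 1 or 3 and 5 without mPGC-1α replicate 1.

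Chac1 carries in its promoter the letters TTGCATCA of an element bound by ATF4 with C/EBP factors, shown here in capitals because ATF4 is known to act through it. The same letters were in Nupr1 of the branch and in the member Herpud1, and in 294 promoters in all (0.895%).
Chac1, chr2:119351034-119351071, plus strand: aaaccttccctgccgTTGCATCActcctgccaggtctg
Herpud1, chr8:94386302-94386339, plus strand: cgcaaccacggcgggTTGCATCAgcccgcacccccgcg
Nupr1, chr7:126625558-126625595, minus strand: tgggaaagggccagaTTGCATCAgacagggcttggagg
Nupr1, a stress-induced chromatin protein, differed by 0.33 (SE 0.19, adjusted p = 0.410), and by 0.15 without mPGC-1α replicate 3. The measured differences of the genes with this element were thus 0.04 in Herpud1 and 0.33 in Nupr1, beside the dim Chac1.

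**Figure D4:**
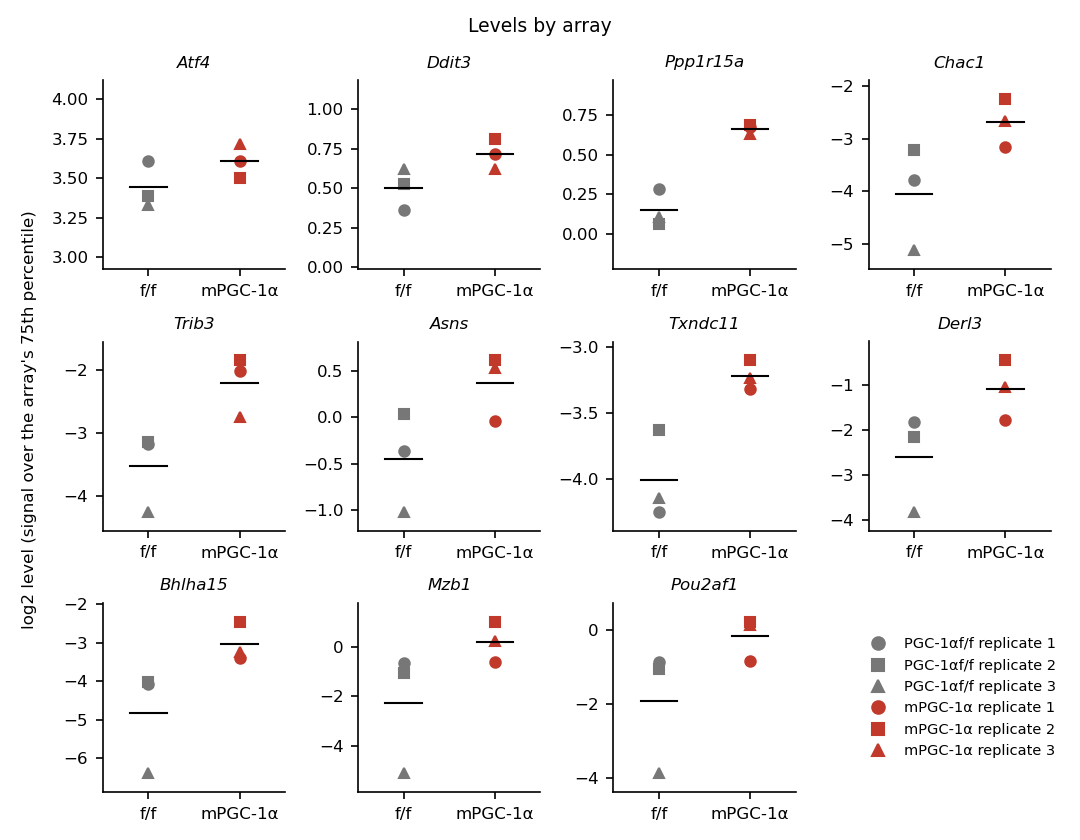
Log2 level on each array of 9 further genes of the pathway and of Mzb1 and Pou2af1, each on its own axis, with bars at the group means. Grey is PGC-1αf/f and red mPGC-1α, and circles, squares and triangles are replicates 1, 2 and 3. The grey triangle of PGC-1αf/f replicate 3 is the lowest point for Chac1, Trib3, Asns, Derl3, Bhlha15, Mzb1 and Pou2af1, whereas Ppp1r15a is separated by group on every array. That replicate is the lowest for 33.4% of all tested genes.

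Derl3 had the widest difference among the further genes well above background on all arrays, and both Derl3 and Bhlha15 are known from secretory cells such as plasma cells. Derl3 (derlin-3), an ER degradation factor, gave -1.83, -2.16 and -3.82 in controls and -1.77, -0.46 and -1.05 in mPGC-1α microglia. The difference was 1.51 (SE 0.56, interval 0.18 to 2.83, adjusted p = 0.265), and 0.90 without PGC-1αf/f replicate 3. Within slide column 1 it was 0.06, and within column 2 it was 1.70. The Derl3 promoter holds an ERSE in the reverse orientation, in capitals.
Derl3, chr10:75893227-75893275, plus strand: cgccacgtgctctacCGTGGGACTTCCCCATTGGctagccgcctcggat
Bhlha15 (MIST1), a transcription factor of secretory cells and a target of XBP1, was well above background on all mPGC-1α arrays and on 0 of the PGC-1αf/f arrays, so that only a bound is given. The mPGC-1α mean of -3.04 was at least 1.58-fold higher than the controls, taken at the lowest signal well above background or the probe's own (adjusted p = 0.256).

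Mzb1 and Pou2af1, which plasma cells express, were likewise lowest on PGC-1αf/f replicate 3. Mzb1 gave -0.63, -1.06 and -5.13 in controls and -0.59, 1.03 and 0.25 in mPGC-1α microglia, and Pou2af1 gave -0.84, -1.04 and -3.87 against -0.84, 0.23 and 0.15. Their differences, 2.51 and 1.77, had adjusted p-values of 0.325 and 0.319, and were 1.08 and 0.79 without PGC-1αf/f replicate 3. Mzb1 was not well above background on that array, and its 2.51 is not exact. Of the 14 listed B and plasma cell genes, 5 had a tested probe with a value on each array, and the other 3 of these (Prdm1, Tnfrsf17 and Cd79b) were lowest on mPGC-1α replicate 1. The mean level of the 5 was 0.65, 0.27 and -0.92 in controls and -0.10, 0.64 and 0.61 in mPGC-1α microglia. The B cell markers Cd79a, Pax5 and Fcer2a were never well above background and Ms4a1 was so on 2 mPGC-1α arrays only, whereas Cd79b was well above it on all 6 arrays. Prdm1, Tnfrsf17 and Cd79b differed the other way from Mzb1, by -1.10, -0.94 and -0.30. Jchain, with values on 3 arrays, differed by 1.63 (adjusted p = 0.361), and Sdc1 was not tested, its brightest probe being well above background on 2 mPGC-1α arrays and 0 control arrays. The part of such cells in the Derl3 and Bhlha15 differences was not tested.

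Txndc11, a thioredoxin-domain protein of the ER, had an adjusted p of 0.162, the lowest of the list. It gave -4.25, -3.63 and -4.15 in controls, where it was well above background on 2 arrays, and -3.32, -3.10 and -3.24 in mPGC-1α microglia. The difference was 0.79 (SE 0.19, interval 0.34 to 1.24), but a second Txndc11 probe, with a value on 5 arrays, gave -0.00 (adjusted p = 0.993). Of 35 genes of the list with several tested probes, 9 had probes that differed in sign. Creb3l1, a membrane-bound transcription factor related to ATF6, differed by 0.58 (SE 0.22, adjusted p = 0.269).

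The remaining roles showed values on both sides of 0. Among the 14 measured further chaperones, which include the calreticulin and calnexin genes, the differences ran from -0.31 in Fkbp14 to 0.29 in Fkbp2, both prolyl isomerases of the ER, with a median of 0.11. The 10 further oxidoreductases ran down to -0.13 in Txndc5, a disulfide isomerase, with a median of 0.02. The 17 further degradation genes had a median of -0.07, with Herpud2, a relative of Herpud1, lowest at -0.24. The 19 genes of translocation and secretion, which bring proteins into the ER and onward, had a median of 0.05, between -0.21 in Srpr, a subunit of the signal recognition particle receptor, and 0.41 in Ssr3, of the translocon-associated complex. Without both replicates 3, Fkbp14 was at 0.02, Fkbp2 at 0.06, Txndc5 at -0.27, Herpud2 at -0.13, Srpr at -0.31 and Ssr3 at 0.09.

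Mbtps2, the protease that makes the last cut of ATF6, gave 1.60, 1.53 and 1.79 in controls and 1.51, 1.39 and 0.95 in mPGC-1α microglia. These groups did not overlap, yet the difference of -0.36 (SE 0.18, adjusted p = 0.361) was -0.12 without both replicates 3. Of 5 measured partners of IRE1α, the extremes were Map3k5 (ASK1), a kinase of its stress signalling, at -0.06, and Bax, a pro-apoptotic protein that binds IRE1α, at 0.59 (SE 0.26, adjusted p = 0.317). A second Bax probe gave 0.90 (adjusted p = 0.173). Without both replicates 3 the first Bax probe gave 0.30 and Map3k5 -0.23. None of these differences passed the threshold.

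Other stress programmes were set beside the pathway. The immediate-early and dissociation list, genes switched on by stimulation or by handling of tissue, had 18 measured genes with a median difference of 0.90. Its mean level ran from 0.66 to 0.92 on the PGC-1αf/f arrays and from 1.72 to 1.89 on the mPGC-1α arrays. Dusp1 (2.24, adjusted p = 0.0122) and Fosb (3.48, adjusted p = 0.0169) rose past the threshold. Both lost the call without PGC-1αf/f replicate 2 (0.0754 and 0.0787), without mPGC-1α replicate 2 (0.125 and 0.143), without mPGC-1α replicate 3 (0.0896 and 0.149), without both replicates 3 (0.0796 and 0.0713) and with the replicate number as a block (0.0803 and 0.0947), and Fosb also without PGC-1αf/f replicate 1 (0.0653), all as adjusted p-values from limma. The cytosolic heat shock list had a median of 0.11 over 12 genes. Its Hspa1a (1.36, adjusted p = 0.0740) and Hspa1b (0.91, adjusted p = 0.130) were well above background on 2 and 1 of 3 control arrays and entered the test through the mPGC-1α arrays, so that these sizes are not exact. Dnajb4, well above background on all arrays, differed by -0.54 (SE 0.18, adjusted p = 0.231) in groups that did not overlap. The part of handling in the PERK branch differences was not tested. The blood leukocyte list had a median of 1.08, which was 0.35 without PGC-1αf/f replicate 3. Of the remaining marker lists, the median was 0.76 for endothelial and mural cells (8 genes), 0.29 for border macrophages (10), 0.20 for neurons (9), 0.12 for erythroid cells (4), 0.07 for astrocytes (9), -0.06 for microglia (8) and -0.58 for oligodendrocytes (12), and 0 of these genes passed the adjusted threshold. Without PGC-1αf/f replicate 3 these medians were 0.06, 0.26, -0.08, -0.38, -0.07, -0.13 and -0.44 in the same order. Without mPGC-1α replicate 3 the medians of these cell types were 0.46, -0.03, 0.29, -0.17, 0.16, -0.13 and -0.53. Their part in the values of the pathway was not tested.

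**Figure D5:**
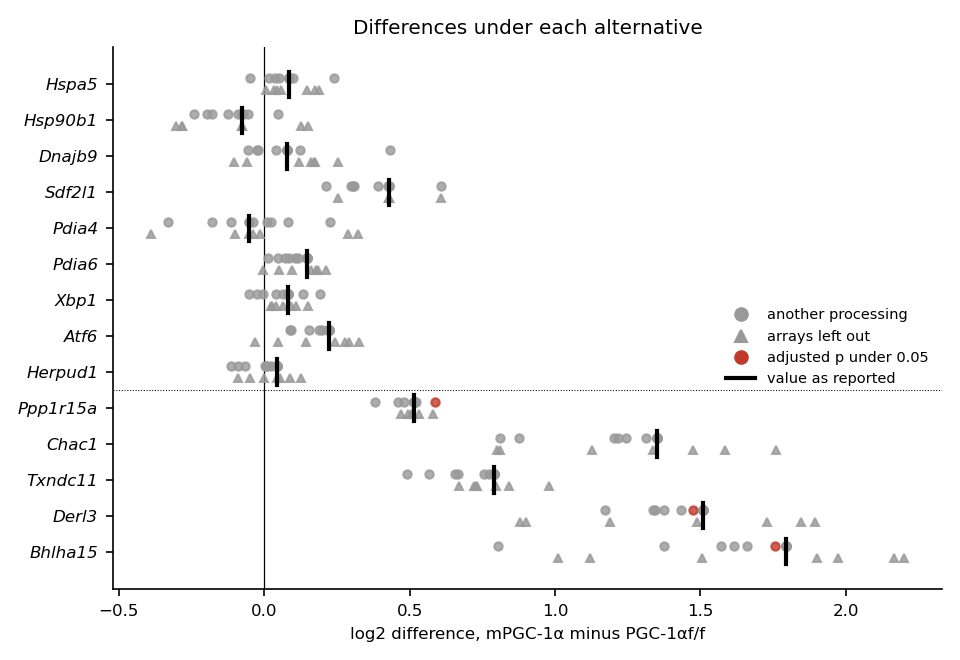
Log2 difference of the 9 tested members, above the dotted line, and of 5 further genes, below it, under each alternative. Circles are other processing choices, triangles fits with arrays left out, black bars the values as reported, and red points those with an adjusted p under 0.05. No member passes the threshold under any alternative shown, with Sdf2l1 between 0.21 and 0.61 and the other 8 between -0.39 and 0.43, while Ppp1r15a, Derl3 and Bhlha15 each pass it under 1.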

How the data were processed

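Total RNA of sorted microglia was amplified, labelled with Cy5 and hybridized by the authors to 1-colour Agilent mouse arrays, 3 per group. RNA extracts were kept, per the labels, above a stated minimum integrity. The deposited scanner files give an intensity per spot from Feature Extraction 11.5.1.1, with background subtracted and spatial trends removed, and the deposited table of the series holds the same values without normalization between arrays. GeneSpring is named in the methods for normalizing the arrays, without a gene-wise test.

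Log2 intensity minus each array's 75th percentile over 59305 non-control spots was used. Spots marked as outliers were left out and spots of a probe averaged. A probe entered the test if it stood well above background throughout 1 group or both (25333 of 56605, of which 25257 gave a p-value). A symbol was found for 33767 probes by matching accessions to the RefSeq table of GRCm38.p6. A gene was represented by its brightest tested probe with values on all arrays. All tested probes were fitted in R 4.3.3 with limma 3.58.1 (lmFit, then eBayes, two-sided tests), and p-values were adjusted by Benjamini-Hochberg. A probe not well above background in a group gave only a bound. The script was tested on simulated data. Tables and figures used Python 3.11.15, pandas 2.3.3, numpy 2.4.6 and matplotlib 3.10.9.

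The members and lists were chosen with earlier results of these data known. All 10 members were named by every probe. Of 92 further genes, Eif2ak3, Atf4, Ddit3 and Ppp1r15a were always named, with the highest and lowest gene of each role and any gene past the threshold. Marker lists covered microglia, blood leukocytes, B and plasma cells, border macrophages, neurons, astrocytes, oligodendrocytes, endothelial and mural cells and erythroid cells, and lists of immediate-early, heat shock and Y-linked genes were set beside them. Samples sharing a replicate number deviated together weakly (correlations of 0.14, 0.13 and 0.02), and were not treated as pairs. The number of arrays limits the precision. Alternatives were other scalings and background correction, the deposited table, other filters, a replicate block, array weights, a trended and robust prior, slide column as random block, genes or probe means instead of probes, and leaving out arrays. Keeping outlier spots and leaving out both replicates 3 were added after seeing the data.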

Additional observations from a re-analysis of the deposited data

How the results depend on the processing

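Of the 20 alternatives, 15 gave a value for Sdf2l1, 17 for Hsp90b1 and for Pdia4, and 19 for Dnajb9. The lowest member adjusted p was 0.190, with array weights, and no member passed the threshold under any alternative that tested it. The count of further genes past it was 3 with array weights (Creb3l1, Ppp1r15a at 0.59 and Trib3) and 2 in the deposited table without normalization (Derl3 at 1.47 and Bhlha15, for which there is only a bound), and 0 under the other alternatives. The cause was not tested. Over all probes, 20 passed as reported, 1100 with array weights, 456 in the deposited table, 138 with slide column as random block, 11 with quantile normalization, with the median shift and with normexp and quantile normalization, 18 with a trended and robust prior, 9 without a filter, 4 with the strict filter, 0 to 24 without 1 array and 2 without both replicates 3.

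The median shift moved all genes alike, by -0.13, which by itself took small differences past 0. With it, the member median was -0.051 and that of further genes -0.088, with Hspa5 at -0.049, Xbp1 at -0.053, Dnajb9 at -0.056 and Herpud1 at -0.089. With quantile normalization, the median of further genes was -0.022, and Xbp1 (-0.024), Dnajb9 (-0.023) and Herpud1 (-0.065) reversed. With normexp and quantile normalization that median was -0.0026, and Dnajb9 (-0.025) and Xbp1 (-0.0051) reversed. In the deposited table it was 0.0079 and Pdia4 was 0.010. With array weights, 2 member probes had an unadjusted p under 0.05, against 0 as reported, Dnajb9 was 0.43, Herpud1 -0.11 and Pdia4 0.23, and with slide column as random block Pdia4 was 0.024. With outlier spots kept, Hsp90b1 was 0.048 and Pdia4 0.080. Without both replicates 3, Atf6 was -0.033, Pdia6 -0.0037, Herpud1 -0.092, Fkbp14 0.021 and Pdia4 0.32, the last from 1 mPGC-1α array. Leaving out 1 array in turn gave a range of -0.10 to 0.18 for Dnajb9, -0.049 to 0.13 for Herpud1, -0.30 to 0.15 for Hsp90b1, -0.39 to 0.29 for Pdia4 and -0.15 to 0.022 for Map3k5, each on both sides of 0.

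The replicate number as a block gave 0 member probes and 0 of all probes past the threshold, where the fit without it gave 0 and 20. Deviations of samples 1, 2 and 3 correlated at 0.139, 0.127 and 0.019 within a replicate number. The highest correlations with another number were -0.050, 0.075 and 0.015. This is at most a weak hint from the data and not from the design. Dusp1 and Fosb then lost their calls, and no other call given here changed. The dim signals of Dnajb9, Chac1, Trib3, Txndc11, Bhlha15, Hspa1a and Hspa1b, that of Mzb1 on 1 array, and the arrays missing for Hsp90b1, Sdf2l1 and Pdia4, limit what can be read from these genes.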
